A study of Mus musculus with 6 samples.

Results

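Hearts with and without miR-1-2 were compared for genes of the circadian clock and its PAR bZIP output factors. On its brighter probe set, Hlf was the one gene whose arrays lay apart between the genotypes. Of the other 9 genes 0 passed the test between the genotypes (limma), and 0 had an unadjusted p under 0.05. Over all 18193 genes 0 passed that test too, and 4.1% had an unadjusted p under 0.05. The count of 0 is thus near the background and is no result about these 9 genes. The 10 genes are Hlf, Dbp, Tef, Nfil3, Nr1d1, Nr1d2, Per1, Per2, Per3 and Arntl. They were taken by their gene symbols in the array's annotation, which gave 23 of the 45037 probe sets tested. Hlf was picked because its level differed between the genotypes. Its values in that comparison are therefore a description and carry no test. The other 9 belong to the same pathway, and they too were listed with earlier results of these arrays known. The series measured messenger RNA of whole mouse hearts at postnatal day 10, with 1 Affymetrix array per animal: 3 animals were wild type and 3 lacked miR-1-2. The miR-1-2 gene is one source of miR-1, a microRNA that muscle cells of heart and skeleton make in large amounts. No probe set used here reads miR-1-2, so its loss was not checked on these arrays. The labels do not name the strain, litter, sex or hour of collection.

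The circadian clock is a feedback loop that most cells carry. BMAL1, encoded by Arntl, pairs with CLOCK and switches on genes with E-box elements, among them the Per genes, Nr1d1 and Nr1d2, and the PAR bZIP genes Dbp, Tef and Hlf. PER proteins then repress BMAL1 and CLOCK, and REV-ERB proteins, encoded by Nr1d1 and Nr1d2, repress Arntl and others through ROR elements (ROREs). Dbp, Tef and Hlf are activators that bind D-box elements, and Nfil3 (E4BP4) is a repressor of the same elements. In adult tissues the E-box and D-box genes peak at another part of the day than the RORE genes, so groups collected at different hours can differ in both sets, in opposite directions.

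The elements that sort these genes are short, and some lie next to the transcription starts. Windows from 250 bases before to 50 bases after a start were taken from RefSeq (build GRCm38.p6) for 9 of the 10 genes, Per2 not among them, and both strands were searched. The D-box was searched as TTATGTAA or TTACGTAA, the E-box as CACGTG and the RORE as ANTAGGTCA, and none of these letters overlap each other in the matches. Of all 32851 windows, 1.06% held the D-box, 7.15% the E-box and 0.661% the RORE. The 9 genes had 12 windows, of which 1 held the D-box, 3 the E-box and 2 the RORE. Counted by gene, the D-box was found in 1 of the 9, the E-box in 2 and the RORE in 2. The stretches are shown because Hlf protein binds the D-box, and because E-boxes and ROREs act in different arms of the clock. The arms compared further below were set from textbook knowledge of the clock and not from these matches. Capitals mark the motif, and each is written on the gene's own strand.
Per3, 2 D-boxes, chr4:151044806-151044880, minus strand: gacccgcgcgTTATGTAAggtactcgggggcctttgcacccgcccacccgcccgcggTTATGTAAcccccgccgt
Per1, E-box, chr11:69098773-69098798, plus strand: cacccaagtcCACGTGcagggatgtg
Tef, upstream start, E-box, chr15:81802536-81802561, plus strand: gctgtggctcCACGTGctgcagctgg
Tef, downstream start, E-box, chr15:81811266-81811291, plus strand: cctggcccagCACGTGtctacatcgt
Arntl, RORE, chr7:113207529-113207557, plus strand: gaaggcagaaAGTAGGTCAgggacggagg
Nfil3, RORE read on the other strand, chr13:52981033-52981061, minus strand: cgctcggaacTGACCTACTaacacacatc
The Per3 motifs begin at positions -205 and -158 relative to the start, and Per3 is the one member with this motif in its window. A match is a description of letters, and a window without one says nothing about the factor.

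All values are log2 expression values made by the authors with RMA, so a difference of 1 is a doubling. RMA corrects background and brings the probe intensities of every array to one distribution, before they are summed up by probe set. The array medians of the deposited values still differed. They were lowest in knockout replicates 2 and 3 (6.03 in both) and highest in knockout replicate 1 (6.11). The arrays read as heart tissue: the 7 cardiomyocyte markers, among them Myh6, Tnnt2 and Myl2, averaged between 11.52 and 14.47. The 6 skeletal muscle, 4 liver and 4 lung markers measured averaged at most 7.69 per gene. Some genes set single arrays apart. Xist, which is transcribed from the silenced X chromosome of female cells, stood at 7.55 and 7.57 in knockout replicates 1 and 3 and between 11.91 and 12.19 in the other 4 arrays. Eif2s3y, a gene of the Y chromosome, stood at 7.63 and 8.35 in those knockout arrays and between 2.85 and 3.16 in the rest. Both arrays with low Xist and high Eif2s3y were knockout, so sex as these genes read it was partly confounded with genotype. Ucp1, the uncoupling protein of brown fat, stood at 9.45 and 10.39 in the first replicates and between 5.22 and 6.68 elsewhere. The mean of 9 brown fat markers ran from 7.23 to 8.15 in wild type and from 7.26 to 8.43 in knockout, with the top of each range in replicate 1. By limma 3 of the 9 (Ucp1, Adipoq and Cidea) were higher in the first replicates than in the other 4 arrays. The same comparison called 4% of all genes. It was made with earlier results of these arrays known. It splits them where Ucp1 was high, so these 3 calls are a description. The remaining markers did not pass, and were 0.0035 (Cox8b) to 0.37 (Otop1) higher in the first replicates. Adipoq, a defining gene of fat cells, stood at 6.85 and 7.32 in the first replicates and near the bottom of the scale elsewhere (3.68 to 3.86). In whole tissue, fewer cells of a type and less RNA per cell cannot be told apart.

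Hlf, the hepatic leukemia factor, was represented by a pair of probe sets. The brighter stood at 7.77, 7.78 and 7.84 in wild-type replicates 1, 2 and 3, and at 8.21, 8.16 and 8.14 in the knockout replicates. Every knockout array lay above every wild-type array. The means were 7.80 ± 0.038 (SD, n = 3) and 8.17 ± 0.036, a log2 difference of 0.38 or 1.30-fold. In knockout this was the smallest SD of the 10 genes, and in wild type only Dbp had a smaller one. Knockout replicate 2, whose Xist level was that of the wild-type arrays, stood at 8.16 beside 8.21 and 8.14 in the low-Xist knockout arrays.

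The dimmer Hlf probe set gave a less even picture. It stood at 7.22, 7.22 and 7.15 in wild type and at 7.52, 7.54 and 7.21 in knockout. Knockout replicate 3 thus lay within the wild-type range on this probe set, so the groups overlapped, although it was clearly high on the other. The difference was 0.22 with SDs of 0.041 and 0.18. With the mean of both probe sets standing for the gene, Hlf differed by 0.30.

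**Figure D1:**
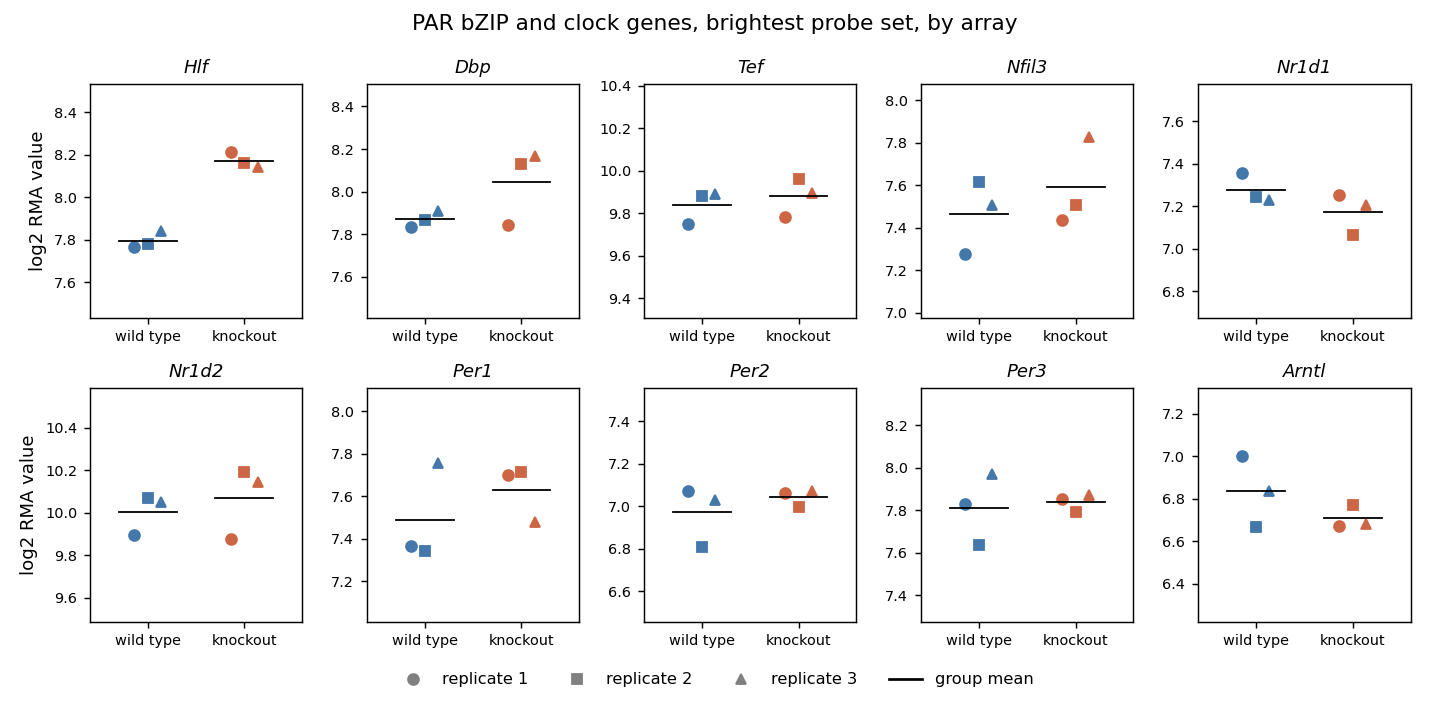
Log2 RMA values of the brightest probe set of each of the 10 genes, by array, with wild type in blue, knockout in orange, replicate numbers as symbols and group means as lines. Each panel spans the same log2 width: the Hlf groups are apart (7.77 to 7.84 against 8.14 to 8.21), and the groups of the other 9 genes overlap.

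Dbp, a D-box activator related to Hlf and a widely used readout of the clock, came next in size. Its brighter probe set stood at 7.83, 7.87 and 7.91 in wild type and at 7.84, 8.13 and 8.17 in knockout. Knockout replicates 2 and 3 were above all wild-type arrays, and knockout replicate 1 lay among them. The difference was 0.18, with a 95% confidence interval of -0.039 to 0.39, and did not pass (limma, adjusted p = 1.00). The second Dbp probe set differed by 0.14, with wild type between 7.41 and 7.75 and knockout between 7.68 and 7.81. Without knockout replicate 1 the Dbp difference was 0.28 (adjusted p = 0.189), and without knockout replicate 3 it was 0.12. With arrays weighted by their agreement with the fit, Dbp passed (limma, 0.27, adjusted p = 0.0465), alone among the members other than Hlf. Hlf was not judged in that fit either, since it was picked by this contrast. The weighted fit called 2.29% of all genes. It gave knockout replicate 1 a weight of 0.22 and knockout replicate 3 one of 4.74.

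Tef, the remaining PAR bZIP activator, was nearly level between the genotypes. It stood at 9.75, 9.88 and 9.89 in wild type and at 9.78, 9.96 and 9.89 in knockout. In both genotypes replicate 1 was the lowest array. The difference was 0.041 (interval -0.14 to 0.22, adjusted p = 1.00), and its dimmer probe sets differed by 0.0045 and -0.087. Nfil3, the repressor of D-box genes, stood at 7.28, 7.61 and 7.51 in wild type and at 7.43, 7.51 and 7.83 in knockout. Only knockout replicate 3 lay above the wild-type range. The difference of 0.12 (interval -0.16 to 0.41) did not pass (limma, adjusted p = 1.00).

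The REV-ERB genes went in different directions. Nr1d1 stood at 7.36, 7.25 and 7.23 in wild type and at 7.25, 7.07 and 7.21 in knockout, a difference of -0.10 (interval -0.28 to 0.077). It was lower in knockout within each replicate number, and its groups overlapped. Nr1d2 stood at 9.90, 10.07 and 10.05 in wild type and at 9.87, 10.19 and 10.15 in knockout, a difference of 0.066 (interval -0.16 to 0.29). Replicate 1 was its lowest array in both genotypes. The dimmer Nr1d2 probe set, at 4.79 in wild type, differed by -0.15. Neither gene passed (limma, adjusted p = 1.00 for both).

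The Per genes, which encode the repressors at the centre of the loop, were spread as widely within a genotype as between them. Per1 stood at 7.36, 7.34 and 7.76 in wild type and at 7.70, 7.71 and 7.48 in knockout. One wild-type array was the highest of all 6, and the difference of 0.14 had an interval of -0.14 to 0.42. Per2 stood at 7.07, 6.81 and 7.03 in wild type and at 7.06, 6.99 and 7.07 in knockout, a difference of 0.072 (interval -0.12 to 0.27). Its knockout arrays lay within the wild-type range or level with the top of it. Per3, the gene with a pair of D-boxes next to its start, stood at 7.83, 7.64 and 7.97 in wild type and at 7.85, 7.79 and 7.87 in knockout. All of its knockout arrays lay inside the wild-type range, and the difference was 0.027 (interval -0.19 to 0.24). The 5 dimmer Per3 probe sets differed by -0.091 to 0.11, and the dimmer Per2 probe sets by 0.10 and -0.0066. No Per gene passed (limma, adjusted p = 1.00 for each).

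Arntl, the activator of the loop, was somewhat lower in knockout on both of its probe sets. The brighter stood at 7.002, 6.67 and 6.84 in wild type and at 6.67, 6.77 and 6.68 in knockout. Wild-type replicates 1 and 3 were above all knockout arrays, and wild-type replicate 2 was the lowest of the 6. The difference was -0.13 (interval -0.34 to 0.086) and did not pass (limma, adjusted p = 1.00). The other probe set differed by -0.12, with groups that overlapped.

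Of the 9 genes other than Hlf, 7 were higher and 2 lower in knockout, with a median difference of 0.066. Over all 18193 genes 50.2% were higher, with a median of 0.00048. By limma 0 of the 9 passed an adjusted p of 0.05 over all genes, and 0 had an unadjusted p under 0.05. The background of that call was 0% of genes (0 of 18193), and 4.1% of genes had an unadjusted p under 0.05. A block for the replicate number left the 9 at 0 passes, against 0.0715% of all genes, and 0 of the 9 had an unadjusted p under 0.05 in that fit, against 7.29%. The knockout arrays lay wholly above the wild-type arrays in 4.57% of all genes and wholly below in 4.28%. Of the 10 genes 1 did so, Hlf, which was chosen by that contrast, and 0 of the other 9 did in either direction. The 95% intervals of all 9, which are not adjusted for the number of genes, held 0, and they reached from -0.34 (Arntl) to 0.42 (Per1).

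At the level of single probe sets the count was the same. Of the 21 probe sets of the 9 genes, 12 were higher and 9 lower, and the differences ran from -0.15 to 0.18. By limma 0 of them passed over all probe sets, without the block or with it, beside 0.00666% and 0.0444% of all probe sets. In either fit 0 of the 21 had an unadjusted p under 0.05, beside 3.94% of all probe sets without the block and 6.49% with it. Knockout lay wholly above wild type in 4.05% of all probe sets and wholly below in 4.65%, and in 0 of these 21 in either direction.

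**Figure D2:**
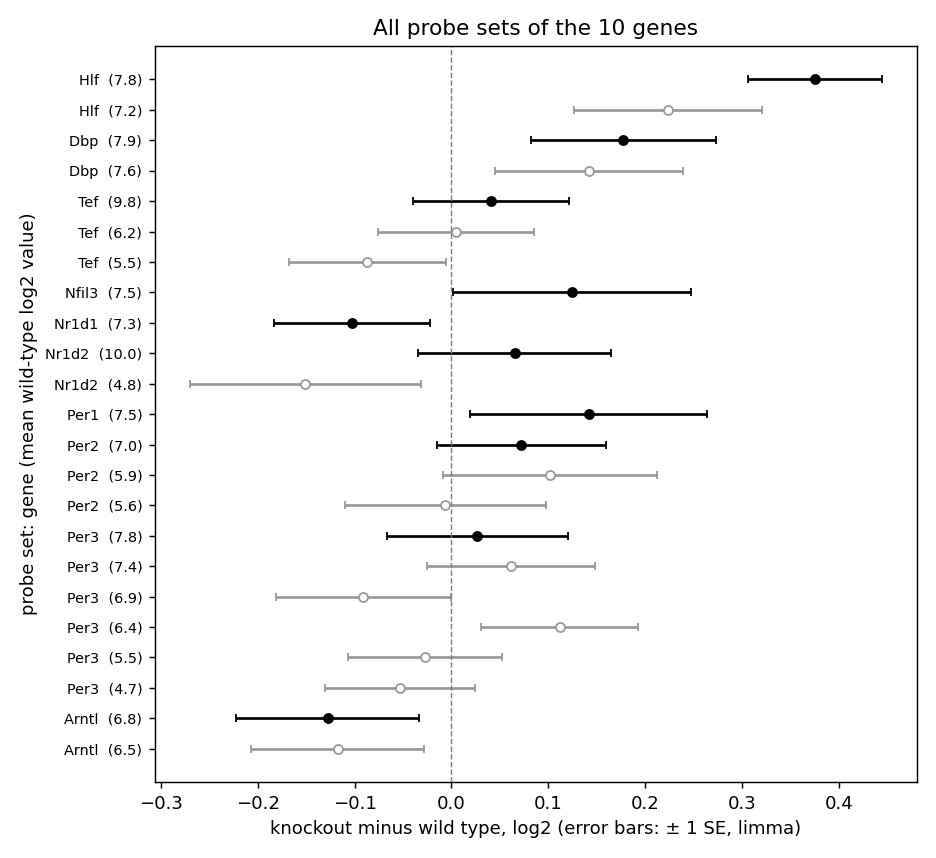
Knockout minus wild-type difference on the log2 scale for all 23 probe sets of the 10 genes, with error bars of 1 standard error; filled points are each gene's brightest probe set, and the mean wild-type level stands in brackets. The 2 Hlf probe sets are at 0.38 and 0.22, and the other 21 lie between -0.15 and 0.18.

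The arms of the clock were then set against each other within each array. One arm held the E-box and D-box genes Dbp, Tef, Per1, Per2, Per3, Nr1d1 and Nr1d2, and the other the RORE genes Arntl, Npas2, Clock, Cry1 and Nfil3. Each gene was centred on its mean over the 6 arrays, and Hlf was left out. The first arm minus the second was 0.026, -0.10 and 0.10 in wild-type replicates 1, 2 and 3, and 0.14, -0.094 and -0.075 in the knockout replicates. Both genotypes had arrays on each side of 0, and the group difference was -0.018, with no test. The RORE arm was lowest in knockout replicate 1 (-0.16) and highest in knockout replicates 2 and 3 (0.15 and 0.13), where the other arm was also above its mean (0.053 and 0.051). The arms stood on opposite sides of their means in wild-type replicates 2 and 3, and on the same side in the other 4 arrays. The group difference ranged from -0.093 to 0.028 when single arrays were left out, so its sign rests on single arrays.

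**Figure D3:**
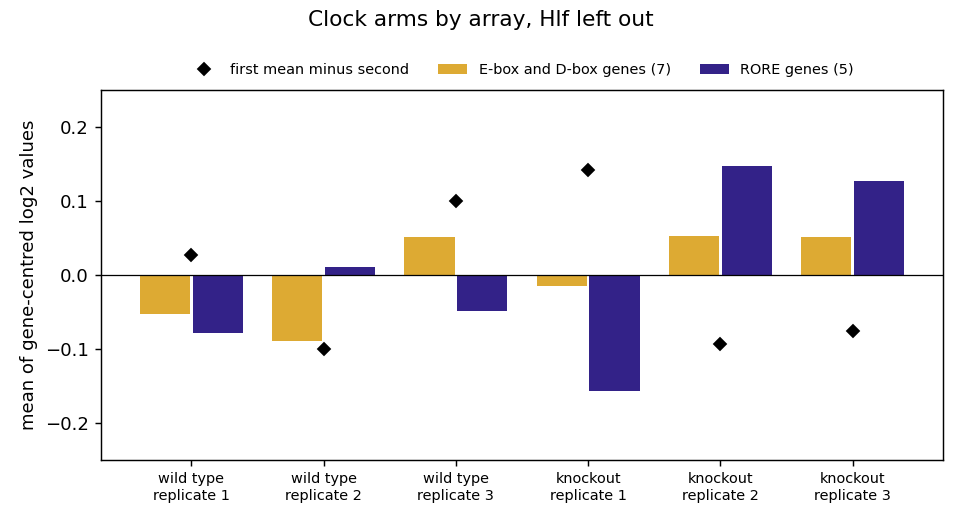
Mean of gene-centred log2 values of 7 E-box and D-box genes (yellow bars) and 5 RORE genes (blue bars) in each array, with their difference as black diamonds. The difference is above 0 in wild-type replicates 1 and 3 and knockout replicate 1 and below 0 in the other 3 arrays.

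The remaining genes of the clock gave the same count of calls. Of 18 listed genes 16 were measured, 8 higher and 8 lower in knockout with a median of 0.00075, and 0 passed over all genes (limma, with and without the block). Of the 16, 1 had an unadjusted p under 0.05 in each fit, beside 4.1% of all genes without the block and 7.29% with it. Npas2, a partner of BMAL1 in place of CLOCK, had the largest difference. It stood at 6.34, 6.42 and 6.26 in wild type and at 6.34, 6.85 and 6.70 in knockout, so knockout replicates 2 and 3 were high and replicate 1 was not. The difference was 0.29 (adjusted p = 1.00, and 0.0439 with array weights, where Npas2 was the 1 gene of this list that passed). Clock differed by 0.11, Cry1 by -0.0051 and Cry2 by -0.019, the cryptochromes being the repressors that act with the PER proteins. Bhlhe40 and Bhlhe41, repressors that compete at E-boxes, differed by -0.0076 and -0.11. Csnk1d and Csnk1e, kinases that mark PER proteins for removal, differed by -0.023 and 0.11.

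Among 47 probe sets of these 16 genes, 2 had knockout wholly above wild type and 0 wholly below, beside 4.05% and 4.65% of all probe sets. The count above is near the background and is no result about these genes. The 2 were named after their values were seen. One was a Rorb probe set near the bottom of the scale, at 3.86, 3.84 and 3.97 in wild type and 4.48, 4.55 and 4.26 in knockout, a difference of 0.54 (limma, adjusted p = 0.655). Rorb encodes an activator at ROREs, and its other probe sets differed by -0.067 and -0.00021. The other was a Clock probe set at 7.48, 7.50 and 7.49 in wild type and 7.56, 7.58 and 7.62 in knockout. That difference was 0.097, and the brightest Clock probe set had groups that overlapped.

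**Figure D4:**
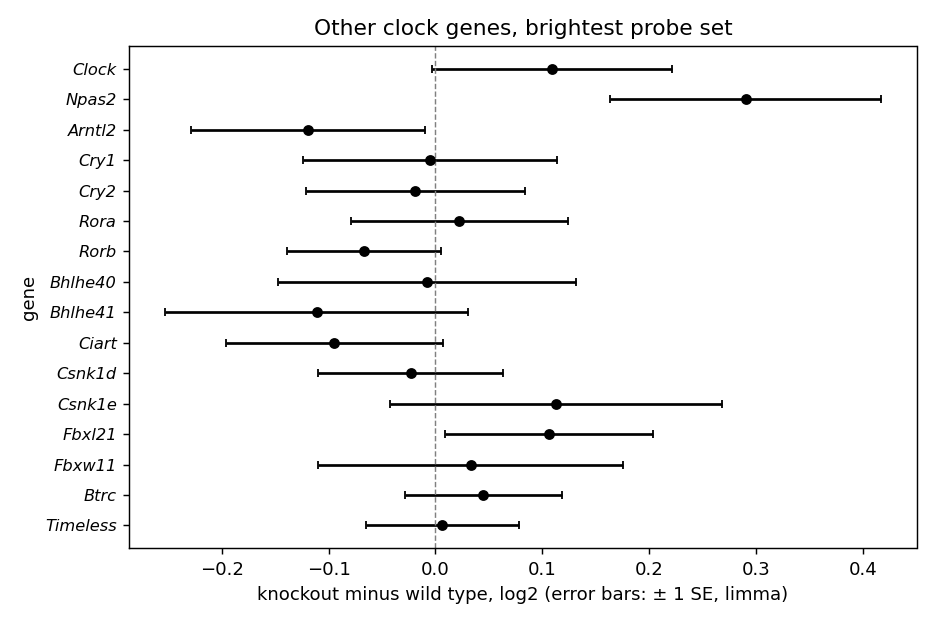
Knockout minus wild-type difference on the log2 scale for 16 other clock genes, brightest probe set each, with error bars of 1 standard error. Npas2 is at 0.29, and the other 15 lie between -0.12 and 0.11.

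Genes known to follow the clock in heart, or to be bound by PAR bZIP factors, were looked at next. Of 14 measured heart clock targets, 8 were higher and 6 lower (median 0.051). By limma 0 passed without the block and 1 with it, beside 0% and 0.0715% of all genes. An unadjusted p under 0.05 was found for 5 of the 14 without the block and 8 with it, beside 4.1% and 7.29% of all genes. The gene that passed with the block was Kcnd2, which encodes a potassium channel of early repolarization. It stood at 7.59, 7.31 and 7.15 in wild type and at 6.74, 6.17 and 6.53 in knockout, and fell by 0.87 with the block (limma, adjusted p = 0.0318, and 0.720 without it). Its inclusion in the list was made knowing this result, and the whole list was made with earlier results of these arrays known. The counts of this list beside all genes are therefore a description and no test of clock targets. Knockout lay wholly above wild type in 1 of the 14 (Kcnip2, 0.52) and wholly below in 3 (Kcnd2, Pdk4 at -0.72 and Nampt at -0.17), beside 4.57% and 4.28% of all genes. Usp2 and Wee1, clock outputs of many tissues, differed by 0.043 and 0.21 with groups that overlapped. Kcnip2, Pdk4, Nampt, Usp2 and Wee1 were named after their values were seen. Of 6 measured genes reported to depend on PAR bZIP factors, 3 were higher and 3 lower (median -0.0064), and 0 passed (limma, with and without the block; 0 at an unadjusted p under 0.05). Those with the largest differences were Ppara, a nuclear receptor of fatty acid oxidation, at 0.14, and Cyp7a1, the rate-limiting enzyme of bile acid synthesis, at 0.093. Pdxk, which makes the active form of vitamin B6, differed by -0.019 and Alas1, the first enzyme of heme synthesis, by 0.0066; both were named after their values were seen.

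The replicate numbers gave a comparison that the choice of genes had not used. The arrays carry the numbers 1, 2 and 3 in both genotypes, and a limma F test asked whether a gene differed between the numbers. Of the 10 clock genes 0 passed, where 0.187% of all genes did. The smallest adjusted p was 0.322, for Nr1d2, the 1 gene of the 10 with an unadjusted p under 0.05. The share of all genes with such an unadjusted p was not counted for this F test, so that count has no background. Of their 23 probe sets 0 passed, where 0.04% of all probe sets did. Immediate early genes, which respond to stimuli within minutes, did differ by number: 5 of 18 passed. Egr1 stood at 8.02, 8.34 and 9.45 in wild type and at 8.25, 8.42 and 9.79 in knockout (adjusted p = 0.00101), so replicate 3 was high in both genotypes. Fos followed the same pattern, at 6.42, 6.79 and 8.35 in wild type and 6.97, 6.69 and 7.98 in knockout (adjusted p = 0.0356). Nr4a1 and Dusp1 were also highest in replicate 3 of both genotypes, and Jun was lowest in replicate 1 of both. Fos, Dusp1 and Jun were named after their values were seen. Per1, itself known to respond to such stimuli, was high in wild-type replicate 3 (7.76) and not in knockout replicate 3 (7.48).

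**Figure D5:**
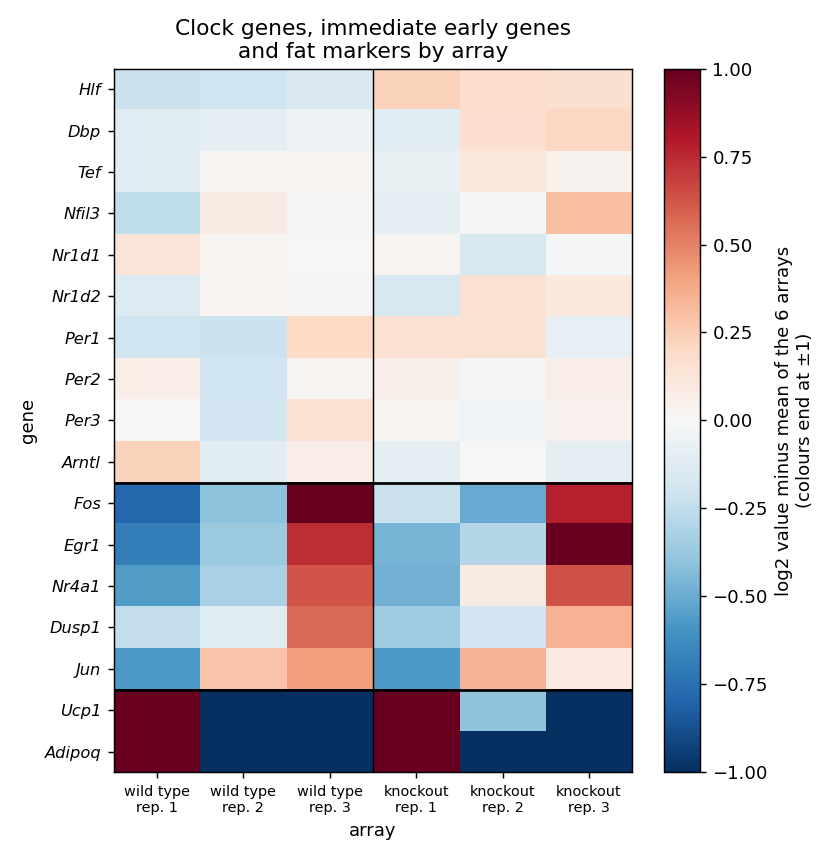
Log2 values minus each gene's mean over the 6 arrays, for the 10 clock genes (top), 5 immediate early genes (middle) and 2 fat markers (bottom); colours end at 1 in each direction. Fos and Egr1 are high in replicate 3 of both genotypes, Ucp1 and Adipoq in both first replicates, and among the clock genes only Hlf separates the genotypes.

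Both first replicates, where Ucp1, Adipoq and Cidea were high, were also set against the other 4 arrays. Of the 10 clock genes 0 passed (limma; 4% of all genes did), and the smallest adjusted p was 0.0831, for Nr1d2, which was 0.23 lower in the first replicates. Among the other clock genes Csnk1e (adjusted p = 0.0305) and Arntl2 (adjusted p = 0.0482) passed. Hlf differed by 0.0088 between the first replicates and the rest. The part of fat tissue in the low values of Nr1d2, Tef and Dbp in replicate 1 was not tested.

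The range over the 6 arrays shows how much each gene varied at all. Nfil3 had the widest range of the 10 (0.55) and Tef the narrowest (0.21), and the median of the 10 was 0.33 beside 0.29 over all genes. Hlf, with a range of 0.44, ranked 3159th of 18193 genes, and most of that range lay between the genotypes. Dbp, whose level changes many-fold over the day in adult tissues, ranged over 0.33.

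Genes whose pattern was most like that of Hlf or Dbp were found among 1947 named genes with a range of at least 0.5. For Hlf the highest Pearson correlations over the 6 arrays were those of Cox8a (0.97), Cox6a1 (0.97), Bbs5 (0.93), Slc25a23 (0.91) and Tox (0.91), and the lowest those of Trim54 (-0.98), Mybpc2 (-0.96) and Asb14 (-0.95). Since Hlf was picked for its difference between the genotypes, genes that differ between them come first in such a list. Dbp was most like Kcnk3 (0.99), Ilvbl (0.99), Tor1a (0.99), Bcl7a (0.98) and Bri3bp (0.98), and least like Unc5cl (-0.98), Fam89a (-0.96) and Tmem158 (-0.96). Kcnk3, which encodes a background potassium channel, stood at 8.99, 9.08 and 9.08 in wild type and at 9.04, 9.46 and 9.49 in knockout. As with Dbp, its knockout replicates 2 and 3 were high and knockout replicate 1 lay among the wild-type arrays. These correlations describe 6 arrays and carry no test, and none of the 5 genes nearest to Dbp was among the 5 nearest to Hlf.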

How the data were processed

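RNA of each heart was extracted with Trizol and amplified with a biotin label, per the labels' protocols. The arrays were read with GCOS 1.4, per the submitters' processing notes. The authors deposited log2 values from RMA, made in the affy package of R, per the series' design text; their versions are not stated there. RMA narrows differences at low signal and hides a change that most genes share. No read depth applies to arrays, and 3 arrays per group limit the precision.

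Groups were read from the sample titles. Control probe sets (64) were dropped. Gene names are those of the platform annotation, updated to RefSeq symbols (GRCm38.p6) through gene identifiers. Each of the 18193 genes was represented by its probe set of highest mean over the 6 arrays, among probe sets naming 1 gene. No probe set naming several genes held a member. Fits used limma 3.58.1 in R 4.3.3, with p-values adjusted by Benjamini-Hochberg over all genes, or over all 45037 probe sets, at a threshold of 0.05. The gene-level fit without the block was also run on simulated data with independent arrays. Deviations shared by arrays of one replicate number were not simulated, so that run says nothing about them.

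Wild-type and knockout arrays share the replicate numbers 1, 2 and 3. Deviations from the group means correlated over genes at 0.54, 0.18 and 0.13 for arrays of one number, all above 0.1, the minimum for treating numbers as pairs. Crossed pairs of replicates 2 and 3 correlated at 0.35 and 0.30, above the values of their own numbers, and no label ties a number to a litter.

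The members, gene lists and tests were chosen with earlier results of these data known. Named genes are all members and any other clock gene. Of each further list they are the genes that passed with or without the block, or else the 2 with the largest difference. Markers of cell type and sex are named to describe the arrays. Other genes named beyond this rule are marked in the text. For likeness they are the 5 genes most like and the 3 most opposite to Hlf and to Dbp.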

Additional observations from a re-analysis of the deposited data

How the results depend on the processing

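Over 16 alternatives, Hlf stayed higher in knockout in all 16 (0.30 to 0.40), and its lowest value came from averaging its probe sets. Hlf was picked by this contrast, so its kept sign is a description and no support. Dbp, Nfil3 and Per1 stayed higher and Nr1d1 and Arntl lower in all 16. Some of the alternatives cannot move a difference in this balanced design. Among them are the replicate block, the term for first replicates and the trend and robust variance. With single arrays left out, Dbp ranged from 0.12 (without knockout replicate 3) to 0.28 (without knockout replicate 1), Nfil3 from 0.0061 (without knockout replicate 3) to 0.20, and Per1 from 0.069 (without wild-type replicate 2) to 0.28 (without wild-type replicate 3). Nr1d1 ranged from -0.14 to -0.049 (without knockout replicate 2), Arntl from -0.21 (without wild-type replicate 2) to -0.044 (without wild-type replicate 1), and Nr1d2 from 0.0051 (without knockout replicate 2) to 0.16 (without knockout replicate 1). Array weights took Per1 to 0.0058 and Nfil3 to 0.27, and the Xist level as a covariate took Nr1d1 to -0.21, Nr1d2 to 0.19 and Nfil3 to 0.044. The sizes of these differences thus depend on single arrays. In the same way Tef ranged from -0.0048 (without wild-type replicate 1) to 0.089, Per2 from -0.0093 (without wild-type replicate 2) to 0.12, and Per3 from -0.061 (without wild-type replicate 2) to 0.11. Tef also turned without knockout replicate 2 (-0.00046). Averaging probe sets turned Tef (-0.014) and Nr1d2 (-0.043), and the Xist level as a covariate turned Per3 (-0.022). The number of the 9 genes that passed was 0 in every alternative run but array weights, where it was 1 (Dbp), and the other clock genes likewise went from 0 to 1 (Npas2). At the level of probe sets it was 0 in every alternative run. The replicate number as a block left these counts at 0 and changed no call of a member. The clock arms differed by -0.10 to 0.028 between the genotypes over the alternatives. Probe sets of members under 5 on the log2 scale lie near background, where a change may not show.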

Other observations

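Genes of the glucocorticoid response, a hormonal signal that also sets clocks in peripheral tissues, were higher in knockout in 8 of 11, with a median of 0.048, beside 50.2% of all genes and a median of 0.00048. By limma 0 passed over all genes, with and without the block. In each fit 2 of the 11 had an unadjusted p under 0.05, beside 4.1% of all genes without the block and 7.29% with it. Mt1, a metallothionein, stood at 9.68, 9.98 and 9.90 in wild type and at 10.12, 10.34 and 10.52 in knockout, a difference of 0.47 (adjusted p = 1.00, and 0.111 with the block). Ddit4, an inhibitor of mTOR signalling, differed by 0.18. Knockout lay wholly above wild type for Mt1 and Ddit4, which made 2 of the 11, beside 4.57% of all genes. The list was made with earlier results of these arrays known. Over the 11 genes the differences ran from -0.12 to 0.47. Mt2, another metallothionein, differed by 0.10 with groups that overlapped. Classical targets of the receptor in the same list differed by 0.027 (Fkbp5), -0.067 (Tsc22d3) and 0.088 (Sgk1). Mt2, Fkbp5, Tsc22d3 and Sgk1 were picked out after their values were seen. A part of glucocorticoids in these values was not tested.

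The C/EBP factors, bZIP proteins whose sites resemble the D-box, were higher in 2 of 5 and lower in 3 (median -0.012). Between the genotypes 0 passed (limma, with and without the block). In either fit 0 had an unadjusted p under 0.05, beside 4.1% of all genes without the block and 7.29% with it. Ddit3 differed by 0.13 and Cebpa by -0.089. Cebpa and Cebpb were higher in both first replicates, where Ucp1, Adipoq and Cidea were also high. For first replicates against the rest, the adjusted p of Cebpa and Cebpb was 0.0341 and 0.0288 (limma), and 4% of all genes passed. Cebpb was named after its values were seen. Of the 18 immediate early genes, 9 were higher and 9 lower between the genotypes, and 0 passed (limma, with and without the block; 0 at an unadjusted p under 0.05 without it and 3 with it, where 7.29% of all genes had one).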
